A study of Mus musculus with 2 samples.

Results

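The transcripts of the mouse mitochondrial genome were examined in long-read RNA sequencing of the gastrocnemius, the large calf muscle. The set holds the 37 genes of chromosome M in GENCODE M21, found by gene names that start with mt-, together with every unannotated transcript model placed on that chromosome. A transcript model is an exon structure to which long reads were assigned, and a gene with no row was counted as 0. Models on chromosome M with at least 1 read numbered 25 of 85714 in replicate 1 and 35 of 92049 in replicate 2. Reads fell on 15 of the 37 genes in replicate 1 and on 18 in replicate 2, and the same 18 were all the genes with a read in either library. Both libraries came from gastrocnemius of female B6CASTF1/J mice aged 2 months, bred by crossing B6 with Cast, with 2 µg of starting RNA each. Replicate 1 was made from animal 3 and replicate 2 from animal 4. The labels nevertheless give both the same donor identifier, so it is not settled that these are separate mice.

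The deposited libraries held 1349298 and 1359923 reads. Spike-in RNA took 3.61% of the reads in replicate 1 and 1.48% in replicate 2. All 7 skeletal muscle markers examined, among them Acta1 and Ckm, carried reads, and together they reached 274300 and 269392 reads per megaread (CPM). With 1 group, no comparison of conditions was possible. Differences given below lie between these 2 libraries. They have no replicate check, and intervals and p-values cover counting error only. The tissue was taken whole, so fewer cells of a type and less RNA per cell cannot be told apart.

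The mitochondrial genome is a small circle whose genes have no introns and lie almost end to end. Each strand is transcribed as a long precursor, and most messenger and ribosomal RNAs are released where the tRNAs between them are cut out. All 13 protein genes encode subunits of the respiratory chain or of ATP synthase, which make most of the ATP of a working muscle. The 2 ribosomal RNA genes and 22 tRNA genes serve the translation of those messages inside the organelle. On the plus strand of the reference lie 28 of the genes and on the minus strand the other 9, which are mt-Nd6 and 8 tRNA genes.

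The 3′ ends of the messages show how tightly the genome is packed. For 3 of the 13 protein genes, mt-Cytb, mt-Co3 and mt-Nd4, the annotated transcript stops after the T of the stop codon, and the poly(A) tail added to the RNA is known to supply the remaining bases. The other annotated transcripts end in a full TAA (8 genes) or TAG (2 genes). Those in TAG, mt-Nd1 and mt-Nd2, each share their last 2 bases with the tRNA gene that follows, mt-Ti and mt-Tw. Where their RNAs end was not tested. The last 30 bases of the 4 genes with the most reads and of the other 2 that end in a bare T are given 5′ to 3′ from the GENCODE M21 transcripts (build mm10), with the stop codon or its encoded part in capitals.
mt-Co1: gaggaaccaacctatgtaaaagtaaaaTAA
mt-Cytb: tcgaagacaaaatactaaaattatatccaT
mt-Nd1: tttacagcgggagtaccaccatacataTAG
mt-Nd2: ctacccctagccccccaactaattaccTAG
mt-Co3: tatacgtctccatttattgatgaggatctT
mt-Nd4: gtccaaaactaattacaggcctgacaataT

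Reads of these genes made up 0.173% of replicate 1 (2341 reads, 95% Wilson interval 0.167 to 0.181%) and 0.243% of replicate 2 (3301 reads, 0.235 to 0.251%). The mean was 0.208% ± 0.0490 (SD, n = 2). With annotated transcripts alone counted, in the genes and in the total, it was 0.322% ± 0.0848 (SD, n = 2). Protein genes held 97.8% of the mitochondrial reads in replicate 1 and 96.6% in replicate 2. Ribosomal RNA genes held 1.88% and 3.12%, and tRNA genes 0.299% and 0.273%. Messages were therefore the bulk of what was read from this genome in both libraries.

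The reads were concentrated on a few genes. The 2 leading genes, mt-Co1 and mt-Cytb, took 63.2% and 65.0% of the mitochondrial reads, and with mt-Nd1 and mt-Nd2 the share reached 79.5% and 80.4%. Of the 37 genes, 11 had at least 10 reads summed over the libraries. A further 7 had at most 3 reads in either library, and 19 had none. A count of 0 allows a level of up to 2.22 CPM in replicate 1 and 2.21 CPM in replicate 2.

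Complex IV, cytochrome c oxidase, passes electrons to oxygen. Its 3 mitochondrial genes together had 1186 and 1446 reads, which is 50.7% and 43.8% of the mitochondrial reads. The catalytic subunit gene mt-Co1 (M:5328-6872, plus strand) had 1064 reads in replicate 1 and 1264 in replicate 2, or 859 ± 99.6 CPM (SD, n = 2). It alone gave 45.5% and 38.3% of the mitochondrial reads. Its partners were far below it: mt-Co2 (M:7013-7696), which carries the copper site that takes electrons from cytochrome c, had 39 and 76 reads. For mt-Co3 (M:8607-9390), a further core subunit, the counts were 83 and 106. The rank of mt-Co2 and mt-Co3 depends on nuclear copies, as described further on.

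Complex III has a single mitochondrial gene, mt-Cytb (M:14145-15288, plus strand), for cytochrome b. It had 416 reads in replicate 1 and 882 in replicate 2, the widest difference in CPM of any of the 37 genes. Its share of the mitochondrial reads was 17.8% (16.3 to 19.4%) and 26.7% (25.2 to 28.3%). The mean of 478 ± 241 CPM (SD, n = 2) accordingly has a wide error.

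Complex I, NADH dehydrogenase, has 7 mitochondrial genes, which held 24.5% and 21.5% of the mitochondrial reads. Most of these reads came from mt-Nd1 (M:2751-3707), with 190 and 268, and mt-Nd2 (M:3914-4951), with 191 and 239. Next came mt-Nd4 (M:10167-11544) with 114 and 105 reads and mt-Nd5 (M:11742-13565) with 77 and 94. The other 3 complex I genes were nearly unread. Both libraries had 1 read of mt-Nd3 (M:9459-9806), while mt-Nd4l (M:9877-10173) and the minus-strand gene mt-Nd6 (M:13552-14070) had 0 reads in replicate 1 and 1 in replicate 2. Complex V, ATP synthase, is represented by mt-Atp6 (M:7927-8607), with 115 and 152 reads, and mt-Atp8 (M:7766-7969), with none.

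The lack of reads on mt-Atp8 and the single read on mt-Nd4l concern genes that share an RNA with a neighbour. The mt-Atp8 and mt-Atp6 frames are read from a shared message and overlap by 43 bases, and the mt-Nd4l and mt-Nd4 frames overlap by 7 bases. Both overlaps are shown with 12 bases on each side. The first set of capitals is the start codon of the downstream frame and the second the stop codon of the upstream frame, on the plus strand of build mm10 (M:7915-7981 and M:10155-10185).
mt-Atp8 and mt-Atp6: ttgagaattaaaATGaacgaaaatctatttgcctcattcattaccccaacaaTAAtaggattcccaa
mt-Nd4l and mt-Nd4: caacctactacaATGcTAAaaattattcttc
Each read is assigned to a single transcript model in the deposited tables, and no annotated model spans either pair. A read of a joint message is thus counted for at most 1 of its frames. How such reads were assigned was not tested, so the counts of mt-Atp8 and mt-Nd4l do not measure how much of their coding sequence was present.

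Levels were compared between genes as CPM per kilobase of annotated transcript. On that scale mt-Co1 was highest, at 510 in replicate 1 and 602 in replicate 2, followed by mt-Cytb at 270 and 567. Within each library mt-Co1 stood above mt-Cytb on this scale, by little in replicate 2. Across the libraries the 2 ranges overlap, and the order was not tested. In CPM, without division by length, mt-Co1 (789 and 929) lies wholly above mt-Cytb (308 and 649). A second tier held mt-Nd1 (147 and 206), mt-Nd2 (136 and 169) and mt-Atp6 (125 and 164), whose ranges overlap one another and lie wholly below mt-Cytb. Within each library these genes stood in the order given. The lower tier held mt-Co3 (78.5 and 99.4), mt-Co2 (42.3 and 81.7) and mt-Nd4 (61.3 and 56.0), each overlapping its neighbour in order of mean. Here mt-Co3 stood highest in each library, while mt-Co2 lay below mt-Nd4 in replicate 1 and above it in replicate 2. Of the 11 genes, mt-Nd5 (31.3 and 37.9), mt-Rnr2 (15.0 and 32.5) and mt-Rnr1 (9.31 and 25.4) were at the bottom. Each range overlaps the next, but their order was the same within each library. Per kilobase, the range of mt-Atp6 does not reach that of mt-Co3, nor that of mt-Nd4 that of mt-Nd5. The order of the lower genes depends on the division by length. In mean CPM, mt-Nd4 (80.8) stood above mt-Co3 (69.7), mt-Nd5 (63.1) and mt-Co2 (42.4). Along the plus strand, mt-Rnr1 and mt-Rnr2 come first and mt-Cytb last of these genes.

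**Figure D1:**
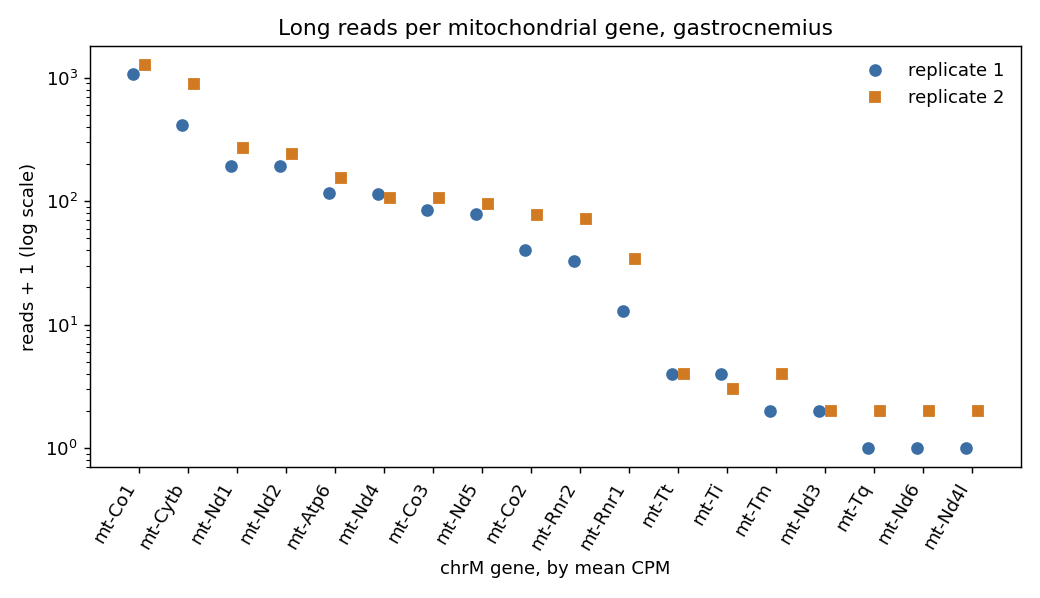
Reads (plus 1, log scale) of the 18 mitochondrial genes with a read in either library, ordered by mean CPM; circles are replicate 1 and squares replicate 2. From mt-Co1 (1064 and 1264 reads) to mt-Rnr1 (12 and 33) the counts fall, and the remaining 7 genes have at most 3 reads in either library.

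The ribosomal RNAs were low. mt-Rnr2 (M:1094-2675), the large subunit RNA, had 32 reads in replicate 1 and 70 in replicate 2, and mt-Rnr1 (M:70-1024), the small subunit RNA, had 12 and 33. These are known as the most abundant RNAs of the organelle in total RNA. The labels used here do not say how the RNA was selected or primed, so these values describe what entered the libraries and not the amounts in the cell.

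Of the 22 tRNA genes, 18 had no read in either library. The 4 with reads were mt-Ti (3 and 2 reads), mt-Tm (1 and 3), mt-Tt (3 and 3) and mt-Tq (0 and 1), which carry isoleucine, methionine, threonine and glutamine. Of these, mt-Ti (M:3706-3774), mt-Tq (M:3772-3842) and mt-Tm (M:3845-3913) stand together between mt-Nd1 and mt-Nd2, and mt-Tt (M:15289-15355) directly follows mt-Cytb. Reads on them are few, and the tables do not give the span of a single read. Their transcripts are shown 5′ to 3′ from the GENCODE M21 transcripts with the anticodon in capitals.
mt-Ti: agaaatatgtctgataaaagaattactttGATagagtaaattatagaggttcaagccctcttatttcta
mt-Tq: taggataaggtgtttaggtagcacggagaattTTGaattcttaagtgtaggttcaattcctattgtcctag
mt-Tm: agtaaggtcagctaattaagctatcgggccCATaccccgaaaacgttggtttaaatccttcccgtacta
mt-Tt: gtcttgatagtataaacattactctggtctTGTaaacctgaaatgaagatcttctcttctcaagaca

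Part of this genome has a near-identical copy in the nucleus, and reads were also assigned there. A block of 4663 bases on chromosome 1 (1:24611535-24616197, minus strand) holds 7 annotated unprocessed pseudogenes in the order of their counterparts on M:6381-11042. The copies sum to 4149 bases and differ from the mitochondrial transcripts at 7 of them. Of the 7 copies, 5 are identical to their counterpart over their whole length. No other annotated gene matched a mitochondrial gene over at least 200 bases at 90% identity or more. The first 60 bases of mt-Co3 and its copy Gm28437 show a pair with no difference. Below them, positions 1054 to 1113 of mt-Co1 are set beside the first 60 bases of Gm29216, the copy with the most differences, with differing bases in capitals.
mt-Co3: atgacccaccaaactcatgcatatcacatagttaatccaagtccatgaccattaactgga
Gm28437: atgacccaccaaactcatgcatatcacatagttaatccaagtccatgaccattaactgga
mt-Co1: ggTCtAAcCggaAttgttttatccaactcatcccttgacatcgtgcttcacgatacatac
Gm29216: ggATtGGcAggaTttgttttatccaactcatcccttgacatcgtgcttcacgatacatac
Counted from the 5′ end of mt-Co1, with its base first, the differences are T1056A, C1057T, A1059G, A1060G, C1062A and A1066T. All lie at the 5′ edge of Gm29216, and the rest of this copy is identical to mt-Co1. Past that edge the 2 reference sequences give no difference by which reads of the copied part could be told apart.

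The copies held 344 reads in replicate 1 and 435 in replicate 2, or 12.8% and 11.6% of the reads on mitochondrial genes and copies together. The reads were split almost evenly within 3 pairs. Gm28437, the copy of mt-Co3, had 103 and 91 reads, which is 55.4% (48.2 to 62.3%) and 46.2% (39.4 to 53.2%) of its pair. Gm10925, the copy of mt-Atp6, had 97 and 144 reads, 45.8% and 48.6% of its pair. For Gm28661, the copy of mt-Co2, they were 50 and 60, or 56.2% and 44.1%. In the reference, these copies are identical in sequence to their counterparts, so the reads of a pair cannot be told apart by that sequence within the gene. The Cast sequence of the block was not examined.

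Gm29216 and Gm28439, which copy only part of a gene, drew a smaller share. Gm29216 covers 31.8% of mt-Co1, at its 3′ end (M:6381-6872), and had 90 and 137 reads, or 7.80% and 9.78% of its pair. Gm28439 covers 63.6% of mt-Nd4, from its 5′ end (M:10167-11042), and had 1 read in each library against 114 and 105. Whether the part covered bears on the share was not tested. Gm28438, which covers 99.1% of mt-Nd3 with the difference T3C, had 2 reads in each library against 1. Gm10222, which covers 99.0% of mt-Nd4l, had 1 and 0 reads against 0 and 1. Between the pairs, then, the copy's share was lowest for mt-Nd4, at 0.870% and 0.943%, and about equal to the gene's own for mt-Co2, mt-Atp6 and mt-Co3, leaving aside mt-Nd3 and mt-Nd4l with their few reads.

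Adding the copies changed the order of the genes. Per kilobase, mt-Atp6 then stood at 231 and 320 CPM, mt-Co3 at 176 and 185 and mt-Co2 at 96.4 and 146. With these sums mt-Atp6 lies above mt-Nd1 in both libraries, whereas without them it lies below. The sum for mt-Co1 was 554 and 667 CPM per kilobase, still the highest. mt-Cytb, mt-Nd1, mt-Nd2, mt-Nd5 and both ribosomal RNA genes have no copy in the block.

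**Figure D2:**
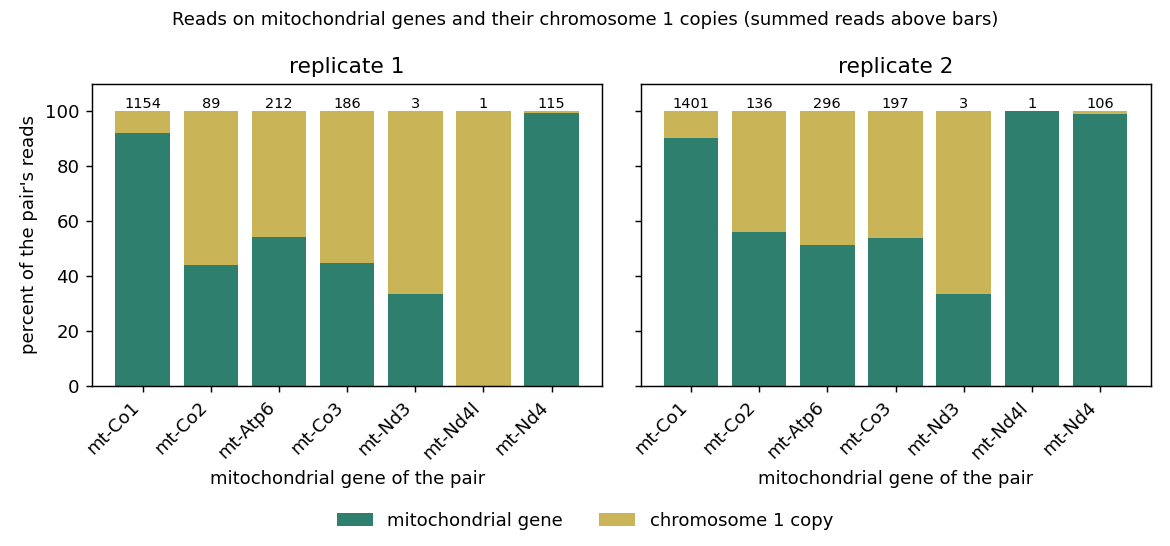
Share of the reads of each pair that was assigned to the mitochondrial gene (green) or to its chromosome 1 copy (yellow), in percent, for replicate 1 (left) and replicate 2 (right), with the pair's summed reads above each bar. In mt-Co2, mt-Atp6 and mt-Co3 the copy holds between 44.1% and 56.2%, and in mt-Co1 7.80% and 9.78%; the mt-Nd3 and mt-Nd4l bars rest on at most 3 reads.

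Of the 18 mitochondrial genes with a read, 14 stood higher in CPM in replicate 2. Of these, mt-Tq, mt-Nd4l and mt-Nd6 had their only read in replicate 2, so they could not stand lower. The matching share over all genes with a read was not computed. All 37 together stood at 1735 CPM in replicate 1 and 2427 CPM in replicate 2, a fold of 1.40 (95% interval 1.33 to 1.48). By Fisher's exact test with Benjamini-Hochberg adjustment over 9341 genes, 6 of the 11 genes with enough reads were higher in replicate 2 and 0 were lower. Of all genes tested, 7.82% were called, 4.25% higher and 3.56% lower. The point estimate was above 1 for 10 of the 11, against 47.8% of all genes. Their median log2 ratio was 0.39, beside -0.01 over all genes. At an unadjusted p under 0.05, 8 of the 11 differed, against 17.8% of all genes.

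The 6 called genes were both ribosomal RNA genes and genes of complexes I, III and IV. mt-Cytb was 2.10-fold higher (1.87 to 2.36, adjusted p = 8.09e-36 by Fisher's exact test). The ribosomal RNAs were both higher in replicate 2, mt-Rnr2 by 2.17-fold (1.43 to 3.29, adjusted p = 0.00528 by Fisher's exact test) and mt-Rnr1 by 2.73-fold (1.43 to 5.22, adjusted p = 0.0358 by the same test). Within complex IV, mt-Co2 was 1.93-fold higher (1.32 to 2.84, adjusted p = 0.0139) and mt-Co1 1.18-fold higher (1.09 to 1.28, adjusted p = 0.00223). In complex I, only mt-Nd1 passed, at 1.40-fold (1.16 to 1.68, adjusted p = 0.00808).

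The 5 tested genes that did not pass were mt-Nd2, mt-Nd4, mt-Nd5, mt-Atp6 and mt-Co3. For mt-Nd4 the point estimate was lower in replicate 2, at 0.914-fold (0.702 to 1.19). For mt-Nd2, mt-Atp6, mt-Co3 and mt-Nd5 the folds were 1.24, 1.31, 1.27 and 1.21. With the chromosome 1 copies added, mt-Atp6 also passed, at 1.39-fold (1.16 to 1.65, adjusted p = 0.00623 by Fisher's exact test, with 4.24% of all genes called higher), and mt-Co3 stood at 1.05-fold (0.860 to 1.28). The called gene mt-Co2 still passed with its copy added, at a smaller 1.52-fold (1.16 to 1.98, adjusted p = 0.0322 by Fisher's exact test). Its copy Gm28661 alone stood at 1.19-fold (0.820 to 1.73) and was not called. For mt-Co1 the call also remained with its copy added. The copies Gm10925 (1.47-fold, adjusted p = 0.0412) and Gm29216 (1.51-fold, adjusted p = 0.0331) were themselves called higher by that test.

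Most of these calls depended on the spread allowed between libraries. With edgeR's exact test at a fixed dispersion of 0.01, only mt-Cytb passed (adjusted p = 2.52e-04), and 0.889% of all genes were called higher. Without the minimum of 10 reads, mt-Rnr1 no longer passed (adjusted p = 0.0587 by Fisher's exact test), and 2.14% of all genes were called higher.

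**Figure D3:**
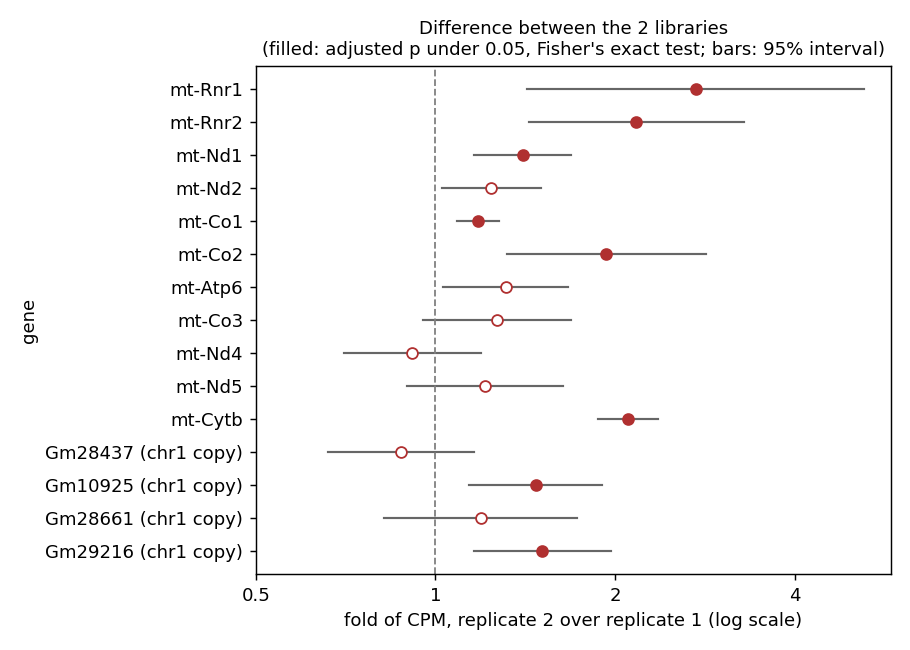
Fold of CPM in replicate 2 over replicate 1 (log axis) with its 95% interval, for the 11 mitochondrial genes tested and the 4 chromosome 1 copies tested; filled points passed the adjusted threshold of 0.05. mt-Cytb stands at 2.10 with a narrow interval, the ribosomal RNA genes at 2.17 and 2.73 with wide ones, and mt-Nd4 at 0.914.

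Other features of the libraries moved with this difference. Slow fibre genes (Myh7, Tnnt1, Tnni1 and Tpm3), which mark slow oxidative fibres, summed to 790 CPM in replicate 1 and 6600 CPM in replicate 2, with 4 of 4 called higher. Among the 7 skeletal muscle markers, 4 were called higher in replicate 2 and 3 lower. The 4 adipocyte markers summed to 1093 and 106 CPM and the 4 Schwann cell markers to 617 and 88.2 CPM, all called lower in replicate 2. Of 3 endothelial markers (153 and 94.9 CPM summed), 1 was lower, and none of 3 red blood cell genes (93.4 and 115 CPM) passed. Ucp1, the brown fat uncoupling protein, had 0 and 1 reads. The Antisense class took 1.18% of all reads in replicate 1 and 2.93% in replicate 2. Annotated nuclear transcripts with a single exon, as all mitochondrial transcripts have, had a median log2 ratio of -0.01 over 366 such genes, of which 45.4% stood higher in replicate 2. The part of the fibre genes, the other cell types, the spike-in share and the Antisense class in the mitochondrial difference was not tested.

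Counting every model on chromosome M, annotated or not, gave 2374 reads in replicate 1 and 3365 in replicate 2. Known models, those of the annotation, held 98.6% and 98.1% (98.3% ± 0.332, SD, n = 2). The models classed as Antisense in the deposited tables had 27 and 56 reads over 8 and 16 models. Of these models, 5 and 14 lay over a gene of the opposite strand, and the other 3 and 2 did not. The Intergenic class had 6 and 8 reads, on 1 model in each library. There were no incomplete matches and no new splice combinations on this chromosome. A single spliced model was found, a Genomic model of mt-Co1 in replicate 1 with exons M:6116-6464 and M:6526-6938, which rested on 1 read.

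By strand, 99.6% of the chromosome M reads in replicate 1 and 99.0% in replicate 2 lay on the plus strand. The minus strand held 10 and 33 reads, or 0.421% (0.229 to 0.774%) and 0.981% (0.699 to 1.37%), a fold of 3.27 (1.64 to 6.55) in CPM between the libraries. Only 2 of the minus-strand reads lay on annotated genes, 1 each on mt-Nd6 and mt-Tq, both in replicate 2. The minus-strand messenger was therefore at the edge of detection in both libraries. The strand of a model is the one written in the deposited annotation, and how it was set for each read is not known here.

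The unannotated reads gathered at 3 places. The first is the control region between mt-Tp and mt-Tf, which holds the promoters and an origin of replication. It had 7 plus-strand and 6 minus-strand reads in replicate 1, and 8 and 18 in replicate 2. The largest model there in replicate 2, M:15721-16294, occurs on both strands, with 8 reads on the plus strand and 16 on the minus strand. In replicate 1 the corresponding models were M:15422-16124 on the plus strand (6 reads) and M:15749-16124 on the minus strand (5 reads). The minus-strand reads of the control region were 2.98-fold higher (1.22 to 7.28) in replicate 2.

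The second place is the plus strand opposite the cluster of minus-strand tRNA genes from mt-Ta to mt-Ty, between mt-Nd2 and mt-Co1. Replicate 1 had 8 reads here on the model M:5018-5326, which runs from the outer end of mt-Ta to the outer end of mt-Ty. Replicate 2 had 10 reads on M:5018-5159, which stops at the end of mt-Tn, and 1 on M:5192-5326, opposite mt-Tc and mt-Ty. The gap of replicate 2 between these models holds no annotated gene and is known as the place of the light-strand replication origin.

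The third place is the plus strand between mt-Nd5 and mt-Cytb, opposite mt-Nd6 and mt-Te. In replicate 1 the 8 reads formed a single model, M:13565-14145, which spans exactly from the last base of mt-Nd5 to the first base of mt-Cytb. In replicate 2 the 13 reads were divided into M:13565-13690 (2 reads), M:13690-14070 (5 reads) and M:14070-14145 (6 reads). Minus-strand models opposite plus-strand genes were scattered: outside the control region they had 4 reads in replicate 1 and 13 in replicate 2. The most were 4, on M:10533-10820 opposite mt-Nd4 in replicate 2.

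Model ends often met annotated gene ends. Counted per library, there were 27 unannotated models. Of their 54 ends, 34 lay within 1 base of the end of an annotated gene, and both ends did so in 13 models. The deposited coordinates are the ends of the models, not of single reads, and how they were set is not given in the sources used here. Of the 27 models, 12 rested on 1 read. Across the libraries, 2 structures recurred with the same start, end and strand, each as a model in both. These were the minus-strand models opposite mt-Rnr2 (M:1094-2675, 2 reads in each) and opposite mt-Tt (M:15288-15355, 1 read in each).

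**Figure D4:**
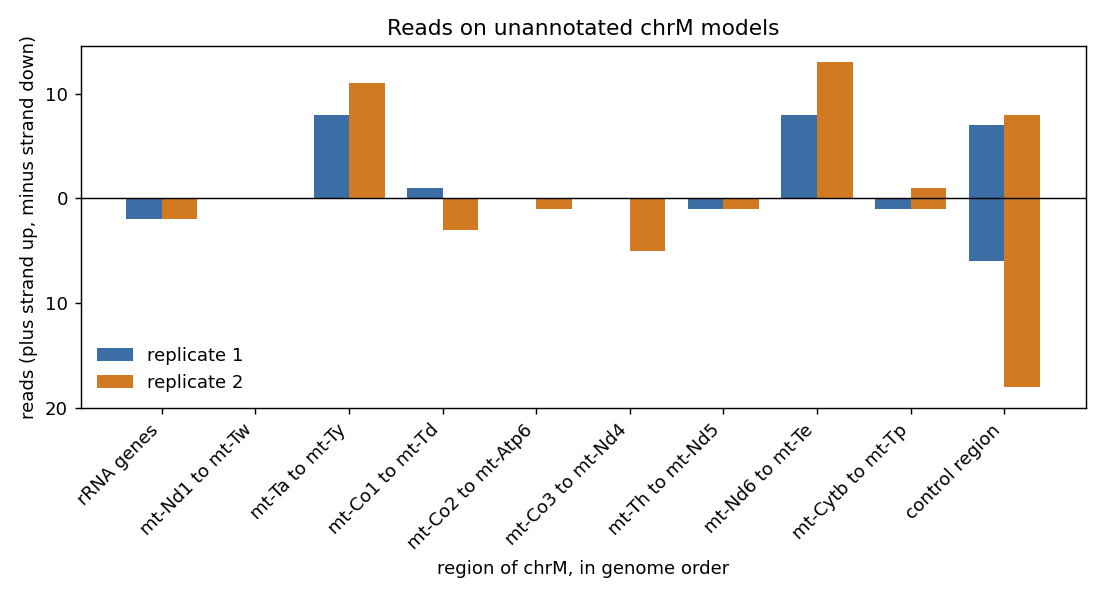
Reads on unannotated chromosome M models by region in genome order, with plus-strand reads above the axis and minus-strand reads below; bars are replicate 1 (blue) and replicate 2 (orange). The plus-strand bars stand at mt-Ta to mt-Ty (8 and 11 reads), mt-Nd6 to mt-Te (8 and 13) and the control region (7 and 8), and the longest minus-strand bar is the control region of replicate 2 (18).

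Nuclear genes that copy, transcribe and process this genome and its RNA were searched by 38 names, of which 36 had a read and 30 were tested. By Fisher's exact test 1 was higher and 1 lower in replicate 2, a share near the 7.82% of all genes called, and the median log2 ratio was 0.00. The names without a read, Prorp and Mrpp3, belong to the same gene in RefSeq (GRCm38.p6), which the tables list as 1110008L16Rik with 18 and 22 reads. It encodes the nuclease subunit that cuts the 5′ ends of the tRNAs. The higher one was Slirp, a partner of Lrpprc in stabilising mitochondrial messages, with 108 and 158 reads (1.45-fold, 1.14 to 1.85, adjusted p = 0.0428 by Fisher's exact test). Twnk, the replicative helicase, had 128 and 80 reads and was lower (0.620-fold, 0.469 to 0.819, adjusted p = 0.0155 by that test). Fastk, of a family that handles mitochondrial RNAs, was the most abundant of the list with 837 and 796 reads, followed by Lrpprc (155 and 189), Grsf1 (137 and 154), a protein of mitochondrial RNA granules, and Hsd17b10 (129 and 150), another subunit of that nuclease. The RNA polymerase gene Polrmt had 44 and 36 reads, and Tfam, which packages the genome and starts transcription, had 37 and 38.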

How the data were processed

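Long-read RNA was measured in 2 gastrocnemius libraries, 1 per animal number. The values deposited by the authors are raw counts of long reads per transcript model, unnormalized. Per the deposited notes, the build is mm10 and the annotation GENCODE M21, and per the file headers the models carry the source name TALON. Not given in the sources used here are the aligner, the read filters, the platform and the RNA selection.

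Gene counts, the sums over models, were scaled to all reads of the library (1349298 and 1359923) to give CPM. Models were placed by the deposited annotations, and gene positions and sequences came from GENCODE M21. Log2 ratios used a pseudocount of 1 CPM, except that folds and their Wilson intervals (95%) came from the counts. A two-sided Fisher's exact test set a gene's reads against the rest of the library for annotated genes of 10 or more reads over both libraries. P-values were adjusted by Benjamini-Hochberg at a threshold of 0.05, and the script was tested on simulated data. A quasi-likelihood test needs residual degrees of freedom, which 2 libraries of 1 group compared with each other lack. Copies were matched to their mitochondrial genes with edlib 1.3.9.post1, and other similar transcripts were searched with minimap2 2.31-r1302. The differences given were counted base by base without gaps. For Gm29216, edlib instead gave 4 substitutions and 2 gap bases. Scripts used Python 3.11.15, numpy 2.4.6, pandas 2.3.3, scipy 1.17.1, R 4.3.3, edgeR 4.0.16 and DESeq2 1.42.0.

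All 37 genes are accounted for. Protein and ribosomal RNA genes, tRNA genes with a read, unannotated models with at least 5 reads (others were named after their values were seen), the 4 most abundant and every called gene of the nuclear list were named. Polrmt and Tfam were named after their values were seen. Members and lists were chosen with earlier results of these data known. Alternatives were a fixed dispersion, other sets of models, no filter and other library totals. Adding the copies and the total of spliced models were chosen after seeing the data.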

Additional observations from a re-analysis of the deposited data

How the results depend on the processing

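Of the 11 mitochondrial genes tested, the count called by Fisher's exact test was 6 with annotated transcripts alone, without the Genomic class and under 4 other library totals (3.67 to 4.59% of all genes called higher), 5 without the filter and 7 with the copies added. It was 1 with edgeR's exact test at a dispersion of 0.01, where 173 genes in all were called instead of 730, because that test allows spread between libraries. Without spike-in reads in the total, all genes called were 343 higher and 374 lower, against 397 and 333. The fold of each of the 11 mitochondrial genes kept its direction under these alternatives. With annotated transcripts alone the mitochondrial share of reads was 0.322%, since fewer reads are counted in the total, and the minus-strand share of chromosome M was 0.0303%, since the unannotated models drop out. With each library left out in turn the mitochondrial share ranged from 0.173 to 0.243%, that of mt-Co1 among mitochondrial reads from 38.3 to 45.5%, and the minus-strand share from 0.421 to 0.981%. With the copies added, the shares of mitochondrial reads became 7.91% for mt-Atp6, 6.10% for mt-Co3 and 3.48% for mt-Co2. The calls need both libraries, so none can be made with a library left out. No paired analysis was possible because there is 1 group. With at most 3 reads each, 7 genes are too shallow to compare.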
